A study of Mus musculus with 30 samples.

Results

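Liver RNA of mice that had been made obese on a high-fat diet and then given UB-NPs was set against liver RNA of mice kept on a standard diet, to describe what still differed from lean liver after treatment. The comparison takes 10 of the 30 libraries of the series, chosen by their labels: 5 of the treated obese group and 5 of the 18-week standard-diet group. Mice of the treated group ate the high-fat diet for 10 weeks, then stayed on it for 8 weeks with UB-NPs at 60 mg/kg/day. Mice of the standard-diet group ate standard diet with water as vehicle for 18 weeks. Another group of 5 libraries, obese mice that stayed on the high-fat diet with water in place of UB-NPs, is given beside many results as the untreated obese group. The labels do not give the strain, sex or age of the mice, nor what the letters UB-NPs stand for. They describe the animals as normal or obese mice and name no genetic change. The design text lists 10 mice per group, and the labels do not say whether each of the 5 libraries of a group came from its own mouse, so p-values measure the spread between these libraries, which may in part be technical.

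Obesity fed by a fat-rich diet fills hepatocytes with triglyceride held in lipid droplets, and the liver answers excess fatty acid and cholesterol through nuclear receptors such as PPARA, which drives fatty acid oxidation, and through SREBP proteins, which drive lipid and sterol synthesis. Hepatocytes also divide labour along the lobule. Cells around the central vein carry most drug oxidation and glutamine synthesis, while cells around the portal tract carry most urea synthesis and gluconeogenesis. Fatty liver is further known for macrophages that take up lipid and for interferon and acute phase responses.

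Every library carried hepatocyte RNA. All 10 listed hepatocyte markers were measured, and their summed level was 22850 to 35022 CPM (read counts scaled to a common library size, the unit of level used throughout) in the standard-diet libraries, 14904 to 27350 CPM in untreated obese libraries and 31933 to 50537 CPM in treated libraries. Total counts were 17.0 to 18.2 M (mega-counts) in the standard-diet group and 19.9 to 24.3 M in the treated group. What those counts were made of differed sharply between the groups. Transcripts of the mitochondrial genome and their nuclear copies took 56.2% to 81.0% of counts in standard-diet libraries and 14.1% to 21.6% in treated ones, a difference of -49.7 percentage points (exact two-sided permutation test, p = 0.00794, the smallest p that 5 against 5 allows). The untreated obese group, at 59.1% to 82.3%, overlapped the lean group. All other genes together therefore had 3.44 to 7.45 M counts in lean libraries and 15.6 to 19.7 M in treated ones. The 18S ribosomal RNA locus Rn18s-rs5 took 3.89% to 7.59% of those other counts in lean libraries and 0.506% to 1.95% in treated ones. Replicate 5 of the standard-diet group stood apart from the other 4: it had the highest mitochondrial share of its group, the fewest other counts, the fewest genes detected (14025) and the lowest score (-115) on the leading principal component, which held 28.9% of the variance. Counts of list members and values of named genes that move by over 1.5 times, or lose or gain the call, without it are given with and without it.

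**Figure D1:**
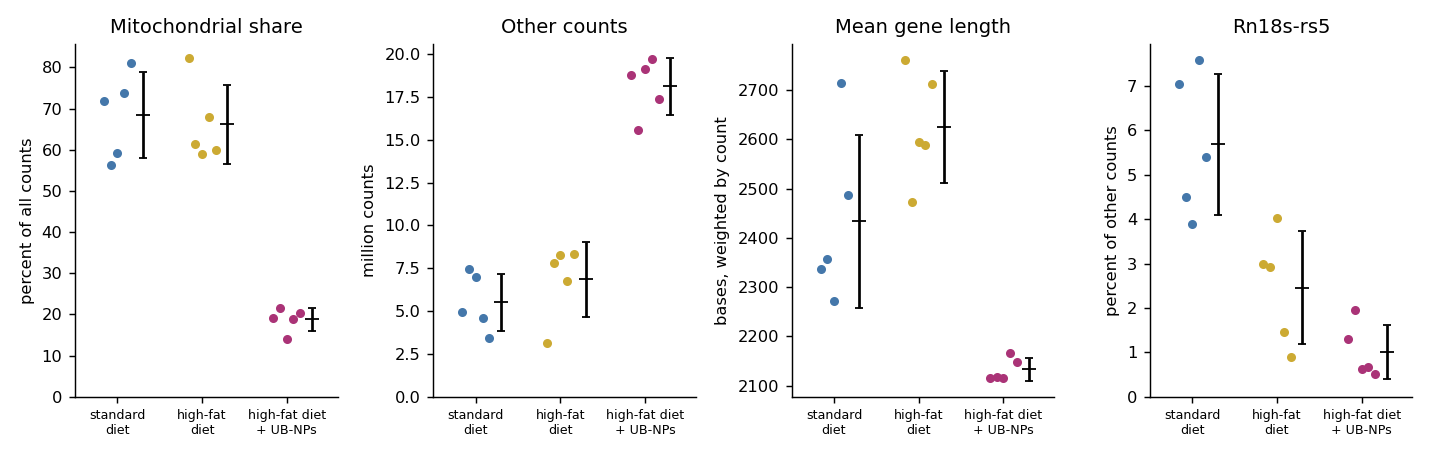
Composition of the 15 libraries of the treatment study by group, 1 point per library, with the mean and SD over 5 libraries as a bar to the right. From left to right the panels show the mitochondrial share in percent of all counts, other counts in M, the count-weighted mean gene length in bases (axis not starting at 0), and Rn18s-rs5 in percent of other counts; the treated libraries, at 14.1% to 21.6% mitochondrial share, do not overlap the lean libraries in any of the 4 panels.

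Of 14163 genes tested, 4027 differed between treated obese and lean liver at an adjusted p under 0.05 in edgeR's quasi-likelihood test, which is 28.4% of all genes tested. Of these, 2281 were higher in treated liver (16.1%) and 1746 were lower (12.3%). These shares are the background against which each group of genes below is read. Complete separation was common: every treated library lay above every lean library for 1856 genes (13.1%), and below every lean library for 1024 genes (7.23%). Untreated obese liver differed from lean liver in 1863 genes (13.2%), 1019 higher (7.19%) and 844 lower (5.96%), or in 1108 without replicate 5 and 1178 without replicate 4 of the untreated obese group, and treated liver from untreated obese liver in 3836 genes (27.1%), 2174 higher (15.3%) and 1662 lower (11.7%). These 3 comparisons share libraries, so their values are set side by side below without a test of overlap. Without standard-diet replicate 5, 4222 genes were called between treated and lean liver.

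Scaling and composition bear on every one of these counts. On deposited TPM values, which are shares of all transcripts with mitochondrial ones included, the median gene was 0.76 higher in treated liver on the log2 scale, and 10445 genes were called higher and 216 lower, that is 98% higher against 56.6% in the count test. TPM fold changes were taken after adding 1 to each value, which shrinks them for low genes. The 0.76 of the median gene is therefore a low mark for abundant genes: Apoa1, not called on counts, was at 1.53. Positions relative to the median gene below carry this limit. For untreated obese against lean liver TPM called 708 genes, 85.9% of them higher against 54.7% in the count test, and for treated against untreated obese liver 8000 genes, 98.1% higher against 56.7%. With the mitochondrial share of each library as a covariate, edgeR called 0 genes, with 1442 genes at an unadjusted p under 0.05 against 5553 without the covariate. Because the share separates the groups completely, it and the group cannot be told apart. A lower level of a gene in bulk liver can also reflect fewer cells of a type or less RNA per cell, and these cannot be told apart either.

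The kinds of transcript that differed were not evenly spread. Protein-coding genes were called higher in 2203 of 12654 cases and lower in 1383. Long noncoding RNA genes leaned the other way, with 54 higher and 184 lower of 1018 tested and a median log2 fold change of -0.28, while the median over all genes was 0.03. Pseudogenes did likewise, with 16 higher and 68 lower of 201. Among protein-coding genes the direction also followed gene length as listed in the count table: among the shortest (up to 1809 bases) 913 genes were higher and 203 lower of 3164, and among the longest (4311 bases and more) 278 were higher and 514 lower of 3164. The count-weighted mean length outside mitochondrial genes was 2272 to 2715 bases in lean libraries and 2116 to 2166 bases in treated ones. How far length or RNA composition contributes to any group of genes below was not tested.

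Genes were named for the largest changes or the smallest adjusted p only if lean and treated libraries did not overlap. Their separation is therefore no separate result. Members of lists were named below for the smallest p among the called members, which favours separation. Where it is stated for them it is no separate result either, beside 13.1% above and 7.23% below over all genes. Of the 10 largest rises, 9 are of genes at a mean of at most 0.409 CPM in lean liver, and the other, Apoa4, is described with the apolipoproteins. Values are given here and below for replicates 1 to 5 of each group in order. Cidea, which encodes a lipid droplet protein best known from brown fat, had no count in any lean library, and 0.174, 2.56, 10.1, 8.47 and 5.64 CPM in the treated libraries, at least 117-fold higher when set against a floor of 3 counts over the lean group (adjusted p = 0.0149). Fam83a and Slc35f2, the latter a solute carrier of the nucleotide sugar transporter family, were likewise at 0 in all lean libraries, and were at least 62-fold and at least 57-fold higher (adjusted p = 7.51e-05 and 2.87e-06). All 5 treated libraries held counts of each of these 3 genes, as that condition required, but Cidea varied widely among them. Untreated obese liver averaged 1.61, 3.27 and 1.5 CPM of Cidea, Fam83a and Slc35f2, and 4.79 CPM of Cyp2a4. Cyp2a4, a steroid 15-alpha-hydroxylase that is higher in female mouse liver, was at 0 in lean liver and at 17.9, 1.87, 12, 0.512 and 20.4 CPM in treated liver, at least 215-fold higher (adjusted p = 0.00537); its near-identical neighbour Cyp2a5 makes the split of reads between them uncertain.

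Ly6d, a small surface protein anchored in the membrane, stood at 0.185, 0.852, 0.475, 0 and 0.118 CPM in lean and 22.8, 36.6, 94.3, 51.7 and 35 CPM in treated liver, a log2 fold change of 7.01 (SE 0.64, adjusted p = 1.89e-06). Without lean replicate 2 that value was 7.79, and untreated obese liver averaged 24.4 CPM. Gpnmb, a glycoprotein of lipid-laden macrophages, was at 0, 0.365, 0, 0.163 and 0 CPM against 4.3, 13.7, 11.1, 20.4 and 10.4 CPM (log2 fold change 6.52, SE 0.84, adjusted p = 4.84e-05), or 7.95 without lean replicate 2, and its mean in untreated obese liver was 31 CPM. Both genes separated the groups completely, as the condition for the largest changes required. Ephb2, a receptor tyrosine kinase, rose by 5.81 (SE 0.86, adjusted p = 8.88e-05; 6.61 without lean replicate 2), Ugt1a8, a glucuronosyltransferase whose locus shares exons with its neighbours, by 6.41 (SE 1.06, adjusted p = 0.000571; 7.78 without lean replicate 3), and Timp1, an inhibitor of matrix metalloproteinases, by 5.18 (SE 0.81, adjusted p = 6.87e-05; 5.86 without lean replicate 1 and 5.80 without lean replicate 4). These 3 rest on few counts in lean liver, where no library exceeded 1.22 CPM. Untreated obese liver averaged 8.99 CPM of Ephb2, 9.53 CPM of Ugt1a8 and 0.987 CPM of Timp1.

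The largest falls included 2 transcripts that vanished from treated liver. Morf4l1-ps1, a pseudogene, stood at 7.66, 5.6, 6.71, 7.1 and 13.3 CPM in lean liver and had no count in any treated library, at least 433-fold lower (adjusted p = 3.65e-05). Sardhos, an RNA antisense to the sarcosine dehydrogenase gene, stood at 9.97, 3.16, 9.49, 8.41 and 6.58 CPM and was also at 0 in all 5 treated libraries, at least 419-fold lower (adjusted p = 1.02e-06). Both were present in untreated obese liver, at means of 4.1 and 3.21 CPM. Whether reads were assigned by strand, and how reads shared with the parent gene Morf4l1 were counted, is not stated, so both values are uncertain. Ulk4, a kinase-like protein, fell from 7.38, 3.41, 5.36, 5.72 and 1.65 CPM to 0.145, 0, 0.568, 0.317 and 0.188 CPM (log2 fold change -4.21, SE 0.51, adjusted p = 8.16e-06), although untreated obese liver held more of it than lean liver, 14.1 CPM on average (log2 fold change 1.58, adjusted p = 0.0186). Meg3, a maternally expressed imprinted long noncoding RNA, fell by 4.12 on the log2 scale (SE 0.82, adjusted p = 0.00095), Mylk4, a myosin light chain kinase, by 4.62 (SE 0.60, adjusted p = 1.02e-05) and Chp2, a calcineurin-like calcium-binding protein, by 3.99 (SE 0.62, adjusted p = 6.91e-05). Transcripts annotated to chemosensory receptor genes, members of large families of similar sequence, also fell: Vmn2r53 by 4.03, Vmn2r115 by 2.95, Or13a18 by 3.92 and Or5al5 by 3.94 on the log2 scale (adjusted p = 0.00017, 5.24e-07, 8.91e-06 and 0.000393; -4.86 for Or5al5 without treated replicate 2). Untreated obese liver was also called lower than lean liver for Meg3 (-2.79), Chp2 (-1.72) and Or13a18 (-1.91; adjusted p = 0.024, 0.0461 and 0.00868). There Mylk4 (-1.18), Vmn2r53 (-1.63), Vmn2r115 (-0.60) and Or5al5 (-1.49) were lower but not called. In each of the transcripts named in this paragraph, every treated library lay below every lean library, as the condition for naming them required.

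Most genes that store and take up fat were above lean levels in treated liver. Of 34 tested members of the lipid droplet and lipid uptake list, 21 were higher and 3 lower in treated than in lean liver, with a median log2 fold change of 0.98. Untreated obese liver had 6 higher and 2 lower than lean liver, with a median of 0.44. Cidec, a droplet protein that promotes fusion into large droplets, was at 1.2, 2.8, 3.12, 3.67 and 2.59 CPM in lean and 32.1, 43.1, 79.1, 74.2 and 58.9 CPM in treated liver. The highest lean library was far below the lowest treated one. The log2 fold change was 4.41 (SE 0.32, adjusted p = 2.18e-08), beside 3.15 (SE 0.31) in untreated obese liver, and the level in treated liver was 1.26 above that in untreated obese liver on the log2 scale (adjusted p = 0.00157). Cd36, a fatty acid uptake receptor, stood at 10.6, 13.9, 11.2, 11.3 and 5.17 CPM against 73.3, 58, 57.5, 73.8 and 79.5 CPM (log2 fold change 2.70, SE 0.25, adjusted p = 4.15e-07), and untreated obese liver at 54.3 CPM on average. Treated and untreated obese liver differed in Cd36 by 0.33 on the log2 scale (SE 0.23, adjusted p = 0.31), which did not pass the threshold.

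Hsd17b11, a droplet-associated dehydrogenase, behaved otherwise, since the untreated obese group was near lean liver. It was at 28.1, 50.7, 41.2, 28 and 30.1 CPM in lean and 253, 225, 223, 191 and 221 CPM in treated liver, without overlap (log2 fold change 2.64, SE 0.23, adjusted p = 1.97e-07), and averaged 53.5 CPM in untreated obese liver. Plin2, the main coat protein of hepatocyte droplets, was 131, 213, 108, 105 and 125 CPM in lean and 254, 371, 386, 337 and 246 CPM in treated liver (log2 fold change 1.22, SE 0.27, adjusted p = 0.00159), again without overlap, while untreated obese liver averaged 81.7 CPM. Pparg, a nuclear receptor that drives fat storage, rose by 1.39 (SE 0.27, adjusted p = 0.000485). Fabp4 and other markers of adipocytes were part of a list in which 3 of 6 tested genes were higher and 1 lower. The defining adipocyte genes Adipoq, Lep, Retn and Plin1 did not reach the count filter in any comparison.

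**Figure D2:**
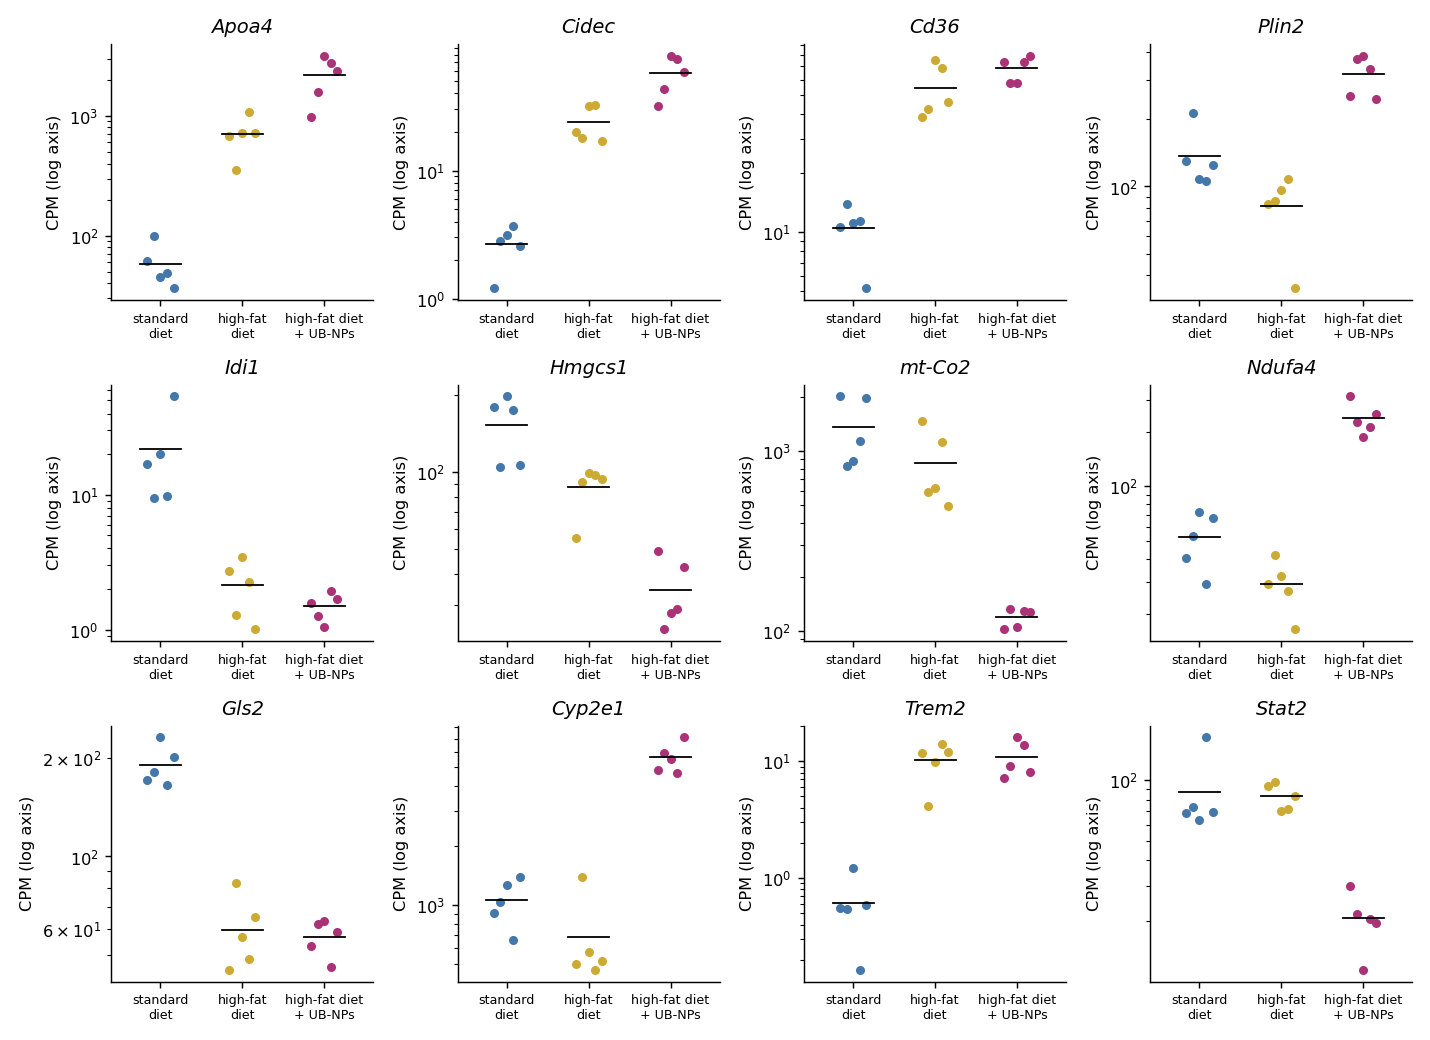
CPM of 12 genes in each library of the treatment study on logarithmic axes, 5 points per group with the group mean as a line. Treated and lean libraries do not overlap in any of the 12; untreated obese libraries sit beside treated ones for Cd36, Idi1, Gls2 and Trem2, and beside lean ones for Ndufa4, Cyp2e1 and Stat2.

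Synthesis of fatty acids and triglyceride moved in parts. Of 28 tested genes 10 were higher and 2 lower, with a median of 0.53, beside 6 higher and 4 lower in untreated obese liver. Fads2, the delta-6 desaturase that starts synthesis of polyunsaturated fatty acids, was at 56.3, 53.2, 45.4, 42.7 and 51.9 CPM in lean and 149, 208, 301, 249 and 202 CPM in treated liver (log2 fold change 2.15, SE 0.21, adjusted p = 5.76e-07), and at 58.9 CPM in untreated obese liver. Dgat2, which makes triglyceride, rose by 1.67 (SE 0.24, adjusted p = 2.68e-05), without overlap between the groups. Acly, which supplies cytosolic acetyl-CoA, fell by 1.79 on the log2 scale (SE 0.25, adjusted p = 1.85e-05). Scd1, the delta-9 desaturase, rose by 1.12 (SE 0.31, adjusted p = 0.00872) and Srebf1, the transcription factor of lipogenesis, by 0.80 (SE 0.22, adjusted p = 0.0101), both with overlapping groups and both lower than their means in untreated obese liver (4922 and 32.7 CPM, against 2753 ± 904 and 24.6 ± 6.31 in treated liver). For Scd1 that gap passed the threshold (adjusted p = 0.0453), for Srebf1 it did not (0.181). Fasn, fatty acid synthase, stood at 29.1 ± 10.2 CPM in lean and 35.5 ± 12.8 CPM in treated liver (adjusted p = 0.45).

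Genes of fatty acid oxidation lay mostly above lean liver in the treated group and mostly below it, where called, in the untreated obese group. In treated liver 22 of 42 tested genes were higher than in lean liver and 3 lower, with a median of 0.72. In untreated obese liver 1 was higher and 15 lower, with a median of -0.61. Directly between treated and untreated obese liver, 34 were higher and 1 lower. Aldh3a2, a fatty aldehyde dehydrogenase under PPARA control, was at 58, 108, 90.7, 103 and 50.2 CPM in lean, 286 CPM on average in untreated obese and 465, 373, 412, 467 and 421 CPM in treated liver (log2 fold change 2.39, SE 0.24, adjusted p = 7.7e-07). Cpt1a, which admits fatty acids to mitochondria, stood at 54.3, 70.2, 76.4, 77.4 and 59.6 CPM and 139, 108, 109, 158 and 179 CPM (log2 fold change 1.03, SE 0.19, adjusted p = 0.000405). Pex11a, a factor of peroxisome division, rose by 1.17 (SE 0.22, adjusted p = 0.000408) and Bdh1, of ketone body synthesis, by 1.15 (SE 0.19, adjusted p = 0.000148). None of these 4 genes, named for the smallest p of the list, overlapped between lean and treated libraries.

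The regulators themselves did not follow their listed targets upward on the count scale. Ppara was at 13.4, 14.3, 19.6, 11.1 and 13.4 CPM in lean and 7.23, 11.5, 6.45, 9 and 9.43 CPM in treated liver, with overlap, a log2 fold change of -0.72 (SE 0.22, adjusted p = 0.0167) that turned to 1.99 on the TPM scale. It lost the call without lean replicate 3 (adjusted p = 0.0642) or treated replicate 3 (adjusted p = 0.0564). Ppargc1a, the coactivator of mitochondrial biogenesis, had a log2 fold change of -1.12 (SE 0.34, adjusted p = 0.0171). On the TPM scale it was 0.10, below the median gene at 0.76. Ppargc1a lost the call without lean replicate 5 (-0.76, adjusted p = 0.0698) or treated replicate 3 (adjusted p = 0.0546). Fgf21, a fasting hormone of the liver, was at 1.94, 5.9, 1.22, 6.29 and 0.94 CPM against 10, 17.8, 33, 23.6 and 11.9 CPM (log2 fold change 2.53, SE 0.47, adjusted p = 0.000671), without overlap.

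Sterol synthesis remained below lean liver, as it was in untreated obese liver. Of 27 tested genes 14 were lower and 4 higher, with a median of -0.98 on the count scale, 0.32 on the TPM scale and -0.44 there relative to the median gene; 17 were lower and none higher in untreated obese liver, with a median of -1.01. Without lean replicate 5, 12 were lower and 4 higher. Directly between treated and untreated obese liver 7 were higher and 1, Hmgcs1, lower, with a median of 0.38. Idi1, the isopentenyl diphosphate isomerase, was at 16.8, 9.43, 20.1, 9.72 and 53.6 CPM in lean and 1.57, 1.26, 1.05, 1.93 and 1.69 CPM in treated liver. Lean replicate 5 is high, yet every lean library exceeds every treated one. The log2 fold change was -3.85 (SE 0.46, adjusted p = 9.69e-06), or -3.21 without that library, beside -3.36 (SE 0.46) in untreated obese liver. Hmgcs1, which makes the precursor HMG-CoA, was at 181, 105, 198, 175 and 107 CPM and 49.1, 24.2, 27.9, 29.2 and 42.5 CPM (log2 fold change -2.15, SE 0.25, adjusted p = 3.52e-06), and lower in treated than in untreated obese liver by a further 1.34 on the log2 scale (adjusted p = 0.000324). Fdps, farnesyl diphosphate synthase, fell by 1.66 (SE 0.32, adjusted p = 0.000511), with overlap. Insig2, which holds SREBP in the endoplasmic reticulum, was at 54.8 ± 14.1 CPM in lean and 42.6 ± 9.19 CPM in treated liver (adjusted p = 0.208).

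Apolipoproteins held the most extreme abundant transcript. Apoa4, a component of chylomicrons and of liver lipoproteins, rose from 61, 99.2, 45, 48.7 and 36.3 CPM in lean to 981, 1590.2, 3179, 2771 and 2368 CPM in treated liver, with untreated obese liver between them at 709.8 CPM on average. The log2 fold change was 5.23 (SE 0.40, adjusted p = 2.67e-08) against lean and 1.62 (SE 0.34, adjusted p = 0.00125) against untreated obese liver. Of 26 tested genes of the lipoprotein list 13 were higher and 1 lower than in lean liver, with a median of 0.62, beside 6 higher and 3 lower in untreated obese liver. Apoe, the ligand by which remnants are cleared, was at 5150.3, 7162, 4829, 2191 and 1999 CPM and 18589, 27727, 30372, 19664 and 24070.2 CPM (log2 fold change 2.50, SE 0.36, adjusted p = 2.79e-05). Apoc2, the activator of lipoprotein lipase, rose by 1.88 (SE 0.18, adjusted p = 5.24e-07) and Mttp, which loads lipid onto nascent particles, by 1.29 (SE 0.21, adjusted p = 0.000122). All 4, named for the smallest p of the list, separated the groups. Apoa1, the main HDL protein, was at 6774 ± 3110.2 CPM in lean and 6709 ± 1693 CPM in treated liver (adjusted p = 0.979).

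Bile acid genes were mixed, with 8 higher and 4 lower of 26 and a median of 0.41, beside none higher and 6 lower in untreated obese liver. Slc10a1, the uptake carrier for bile acids at the sinusoidal face, was at 56.4, 49.8, 49.3, 50.7 and 39.5 CPM in lean, 21.9 CPM on average in untreated obese and 110.3, 92, 94.2, 123 and 167 CPM in treated liver (log2 fold change 1.25, SE 0.22, adjusted p = 0.000236). It was therefore above lean liver after treatment and below it without. Slc51a, a subunit of the bile acid exporter, rose by 1.84 (SE 0.33, adjusted p = 0.000237), and Akr1d1, which reduces the steroid ring, fell by 1.56 (SE 0.32, adjusted p = 0.000913). Cyp7a1, the rate-limiting enzyme of bile acid synthesis, was at 16.7 ± 13.9 and 26.3 ± 10.1 CPM (adjusted p = 0.401), and Cyp8b1, which sets the cholic acid share, at 75.4 ± 26.6 and 103 ± 45.2 CPM (adjusted p = 0.618).

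The 2 genomes that build the respiratory chain moved apart. All 13 tested mitochondrially encoded proteins were lower in treated liver, with a median of -3.21, while 49 of 77 nuclear subunits were higher and none lower, with a median of 0.79. The direction of both lists was the same on the TPM scale, where the medians were -1.67 and 2.26. In untreated obese liver none of the 13 was called and 21 of the 77 nuclear subunits were lower, none higher, with a median of -0.38. mt-Co2, the mitochondrial gene of cytochrome oxidase subunit 2, was at 2009, 828, 877, 1131 and 1979 CPM in lean and 103, 133, 105, 129 and 128 CPM in treated liver (log2 fold change -3.51, SE 0.34, adjusted p = 5.76e-07). The lean libraries spread widely and the treated ones narrowly, with no overlap. mt-Nd3 of complex I, mt-Co3 of complex IV and mt-Atp6 of ATP synthase fell by 3.27, 3.21 and 3.19 on the log2 scale (adjusted p = 1.39e-06, 3.82e-06 and 1.61e-06). These falls are the same quantity as the lower mitochondrial share and are no separate result.

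Among nuclear subunits, grouped by gene name, members of complexes I, III, IV and V were called higher, and a difference between complexes was not tested. Complex I had 25 of 38 higher with a median of 0.87, complex III 7 of 9 with a median of 0.67, complex IV 9 of 10 with a median of 1.21 and ATP synthase 8 of 15 with a median of 0.72. Complex II, whose subunits are also an enzyme of the citric acid cycle, had none of 4 called and a median of 0.08. Ndufa4 is counted under complex I here by its name alone, although its protein is a subunit of cytochrome oxidase. It was at 40.5, 53.4, 72.3, 29.2 and 67.5 CPM in lean, 29.3 CPM on average in untreated obese and 312, 226, 186, 212 and 249 CPM in treated liver (log2 fold change 2.17, SE 0.27, adjusted p = 5.74e-06). Cox7a2 and Cox8a of cytochrome oxidase rose by 1.73 and 1.50 (SE 0.23 and 0.22, adjusted p = 1.21e-05 and 3.55e-05), and Ndufa7 of complex I by 1.70 (SE 0.24, adjusted p = 2.31e-05). These subunits are encoded by short genes, and short genes as a class were higher in treated liver, as given above.

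**Figure D3:**
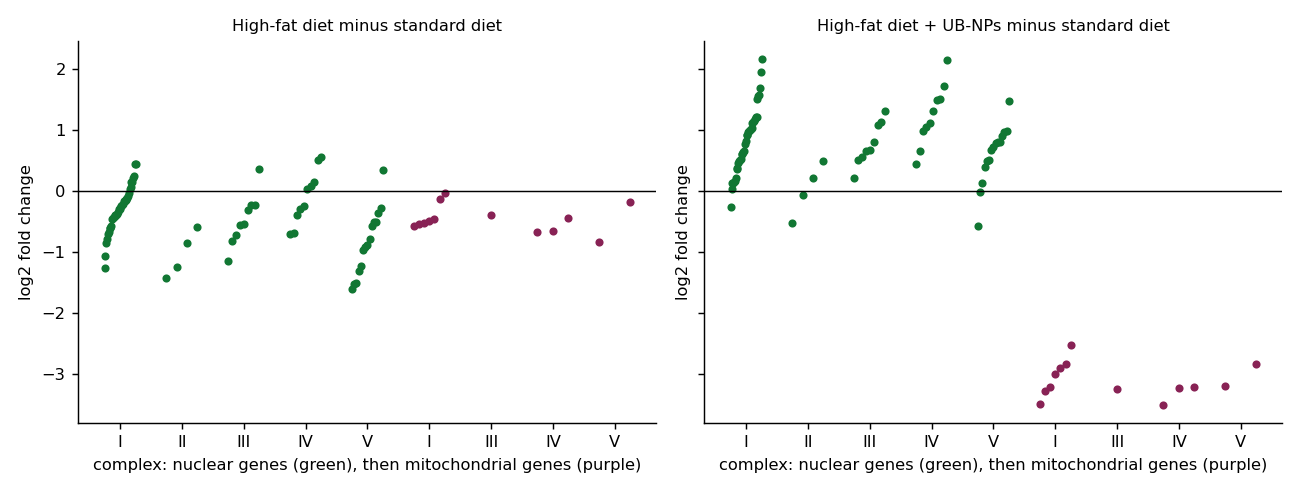
Log2 fold change against lean liver of each tested respiratory chain gene, 1 point per gene, by complex as read from the gene name (Ndufa4 under complex I) and by genome (nuclear genes in green, mitochondrial genes in purple), for untreated obese liver on the left and treated obese liver on the right. In treated liver the mitochondrial genes lie between -3.51 and -2.53, while the median of the nuclear genes of complexes I, III, IV and V lies between 0.67 and 1.21.

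Genes of mitochondrial gene expression, biogenesis and quality control did not move as a list, with 5 higher and 4 lower of 40 and a median of -0.11. Clpx, the unfoldase of the matrix protease ClpXP, had the smallest adjusted p of the falls named here: 59.9, 92.5, 92, 85.6 and 121 CPM in lean and 17.9, 15.1, 11.7, 13.8 and 14.9 CPM in treated liver, a log2 fold change of -2.62 (SE 0.19, adjusted p = 2.18e-08), beside -1.51 (SE 0.19) in untreated obese liver. Hspe1, the co-chaperonin of the matrix, rose by 1.27 (SE 0.19, adjusted p = 5.23e-05) and Tfam, which packs and transcribes mitochondrial DNA, by 0.75 (SE 0.22, adjusted p = 0.0136), the latter with overlap. The proteasome, in the cytosol, had 22 of 34 subunits higher and 1 lower, with a median of 0.76, where untreated obese liver had 1 higher and 8 lower. Its catalytic subunits Psmb2 and Psmb5 rose by 1.16 and 1.58 (SE 0.19 and 0.27, adjusted p = 0.000106 and 0.000148), both without overlap. Cytosolic ribosomal proteins had 12 of 79 higher and 1 lower, a share of higher members near that of all genes, and a median of 0.11. Without lean replicate 5, 19 were higher and none lower.

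Genes of amino acid catabolism stayed in part below lean liver on the count scale. None of 39 tested genes was higher and 17 were lower, with a median of -0.57 on the count scale, 0.84 on the TPM scale and 0.08 there relative to the median gene; untreated obese liver had none higher and 24 lower, with a median of -0.84. Without lean replicate 5, 14 were lower. Directly between treated and untreated obese liver 13 were higher and 1, Gldc, lower, with a median of 0.44. Gls2, the liver glutaminase that feeds ammonia to the urea cycle, was at 172, 182, 232, 166 and 202 CPM in lean and 53.1, 62.3, 63.5, 45.9 and 58.6 CPM in treated liver (log2 fold change -1.75, SE 0.20, adjusted p = 2.5e-06), and averaged 59.6 CPM in untreated obese liver. Gldc, of the glycine cleavage system, was at 36.4, 39.9, 47.9, 29.7 and 41.8 CPM against 11.8, 6.85, 11.7, 8.61 and 11.9 CPM (log2 fold change -1.94, SE 0.19, adjusted p = 6.35e-07). Neither gene, both named for the smallest p of the list, overlapped between lean and treated libraries. Got1, the cytosolic aspartate aminotransferase, fell by 1.92 (SE 0.31, adjusted p = 0.000107). Tat, tyrosine aminotransferase, had a log2 fold change of -1.29 (SE 0.22, adjusted p = 0.000176) and Arg1, the arginase of the urea cycle, of -1.15 (SE 0.26, adjusted p = 0.00238). Both turned positive on the TPM scale (0.17 and 0.31) but stayed below the median gene there, at 0.76.

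Markers of the lobule's ends went in different directions on the count scale. Of 20 tested pericentral genes 11 were higher and none lower, with a median of 1.25, and of 17 periportal genes 9 were lower and 1 higher, with a median of -0.94 (0.72 on the TPM scale, -0.04 there relative to the median gene). Without lean replicate 5, 11 pericentral genes were higher and 1 lower. The pericentral median was 2.34 on the TPM scale. With the mitochondrial share as covariate, where no gene was called, the pericentral and periportal medians were -0.49 and -1.40. Untreated obese liver had 2 higher and 1 lower pericentral genes and 10 lower periportal genes. Cyp2e1, which oxidises ethanol and small solvents, was at 906, 1032, 1262, 664 and 1392 CPM in lean, 687 CPM on average in untreated obese and 4842, 5951, 5542, 4707 and 7125 CPM in treated liver (log2 fold change 2.42, SE 0.32, adjusted p = 1.21e-05). Every treated library exceeded every lean one. Gulo, of vitamin C synthesis, rose by 1.88, the chemotactic hepatokine Lect2 by 2.17 and Glul, glutamine synthetase, by 1.21 (SE 0.28, 0.38 and 0.25, adjusted p = 4.03e-05, 0.000299 and 0.0011). On the periportal side Sds, serine dehydratase, fell by 1.66 (SE 0.30, adjusted p = 0.000272), and Gls2 and Gldc above belong to the same list. The 1 periportal gene that rose was Spp2, a secreted phosphoprotein, at 29.3, 39.3, 33.8, 16.7 and 11.4 CPM in lean and 135, 158, 134, 126 and 147 CPM in treated liver (log2 fold change 2.42, SE 0.29, adjusted p = 3.92e-06).

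Glucose genes had 5 higher and 6 lower of 24. Pck1, the gatekeeper of gluconeogenesis, was at 1700.3, 1898, 2116, 2360.3 and 2454 CPM in lean and 676, 592, 591, 558 and 808 CPM in treated liver (log2 fold change -1.71, SE 0.21, adjusted p = 6.95e-06), with untreated obese liver between at 1030.0 CPM. Gys2, liver glycogen synthase, rose by 1.50 (SE 0.20, adjusted p = 1.22e-05), while Ppp1r3c, a phosphatase subunit that favours glycogen storage, fell by 1.91 (SE 0.29, adjusted p = 6.28e-05). Igfbp1, an insulin-repressed binding protein, was at 5.47 ± 4.06 and 4.93 ± 2.25 CPM (adjusted p = 0.814).

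Drug-metabolising and antioxidant enzymes were widely higher in treated liver. Of 34 tested cytochromes P450 of families 2 and 3, 12 were higher and 2 lower (4 and 1 in untreated obese liver). Of 45 phase II enzymes, 24 were higher and 3 lower (5 and 12), with a median of 0.81 against -0.39. Of 30 NRF2 and antioxidant genes, 18 were higher and none lower (4 and 2), with a median of 0.74. Ephx1, microsomal epoxide hydrolase, was at 62.1, 78.6, 63.8, 50.6 and 40.1 CPM in lean and 405, 389.5, 727, 336 and 366 CPM in treated liver (log2 fold change 2.91, SE 0.25, adjusted p = 1.97e-07). Gpx4, which detoxifies lipid peroxides, was at 168, 164, 149, 82.5 and 81.8 CPM and 531, 775, 794, 589.7 and 544 CPM (log2 fold change 2.32, SE 0.26, adjusted p = 2.59e-06). Neither gene overlapped between groups. Nqo1, a quinone reductase and a standard NRF2 target, rose by 2.45 (SE 0.39, adjusted p = 9.74e-05) and Srxn1, sulfiredoxin, by 1.74 (SE 0.23, adjusted p = 1.28e-05).

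Cyp2a5, the coumarin hydroxylase, was at 105, 185, 309, 167 and 31.8 CPM in lean and 2739.7, 1209, 1569, 907 and 2006 CPM in treated liver (log2 fold change 3.40, SE 0.55, adjusted p = 0.000184), with the paralog caveat given for Cyp2a4. Por, the reductase that feeds electrons to all microsomal P450 enzymes, rose by 2.01 (SE 0.34, adjusted p = 0.000161) and Cyp2c38 by 1.63 (SE 0.23, adjusted p = 2.52e-05). The glutathione transferases Gstm2 and Gstm4 rose by 2.24 and 2.35 (SE 0.21 and 0.27, adjusted p = 5.24e-07 and 3.15e-06), and Sult1d1, a sulfotransferase, fell by 2.15 (SE 0.26, adjusted p = 4.34e-06). These enzymes belong to families of similar sequence, so single members are less certain than the lists. Targets of the aryl hydrocarbon receptor had 2 of 9 higher, Nqo1 and Ugt1a6b (1.96, SE 0.26, adjusted p = 1.23e-05). Cyp1a1, the standard readout of that receptor, did not exceed 1.34 CPM in any lean or treated library (adjusted p = 0.285).

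**Figure D4:**
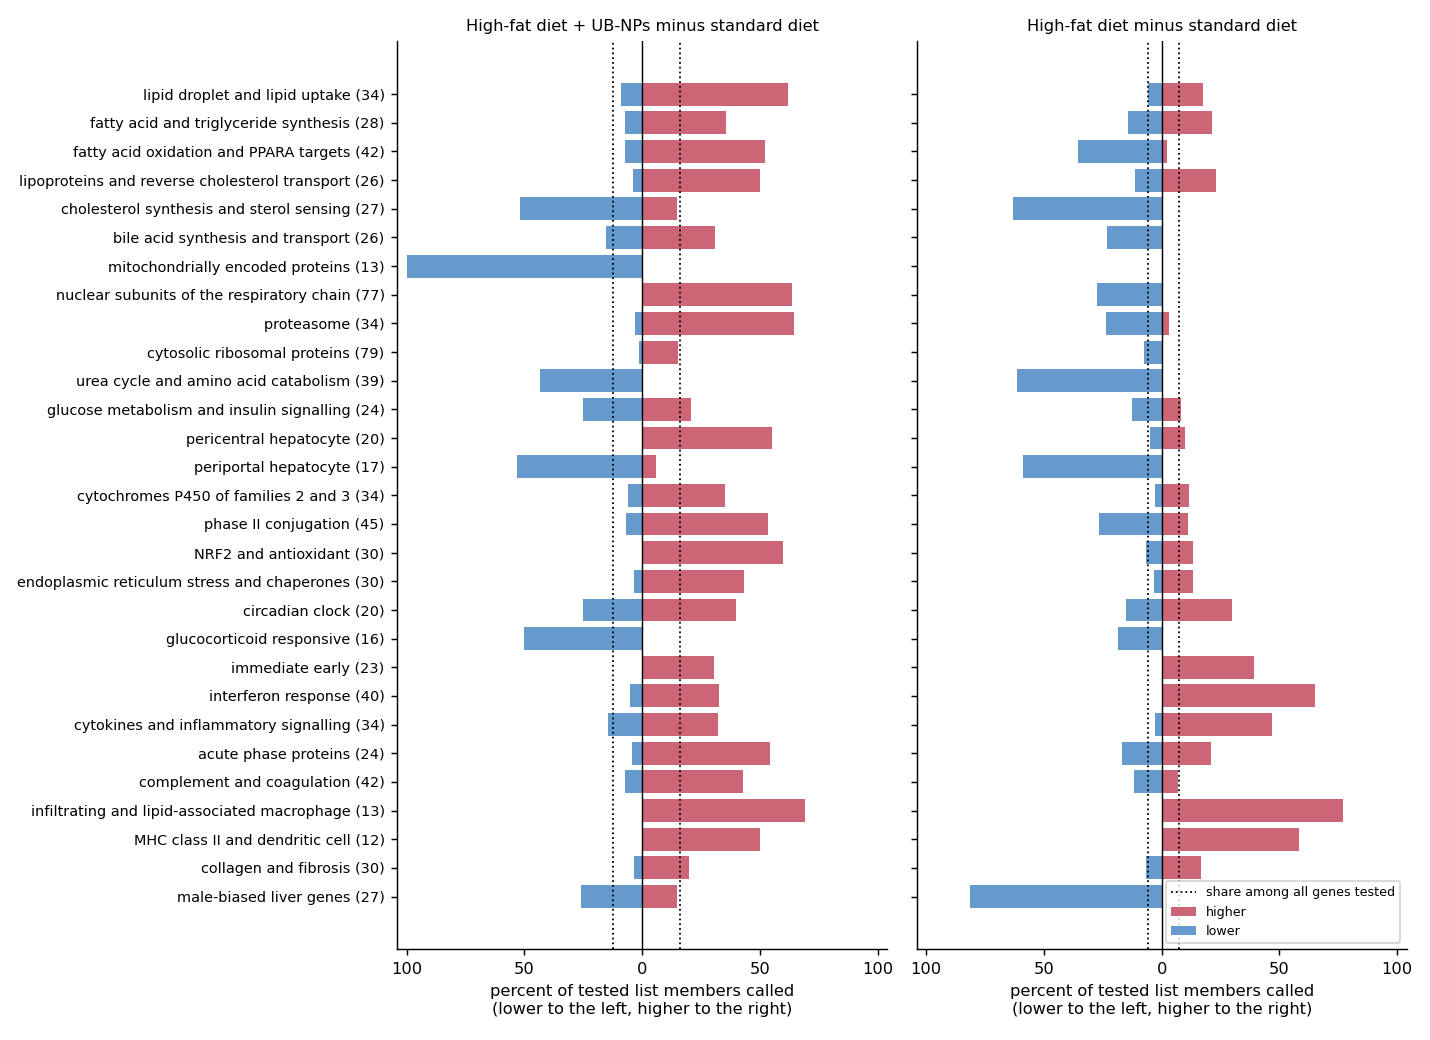
Percent of tested members of 29 gene lists that were called against lean liver at an adjusted p under 0.05, lower members to the left in blue and higher members to the right in red, for treated obese liver (left panel) and untreated obese liver (right panel), with tested members in parentheses. Dotted lines mark the share among all genes tested (16.1% higher and 12.3% lower on the left); the panels share the lean libraries.

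Genes of the circadian clock differed in both directions. The labels give no time of day of collection, and its part was not tested. Of 20 tested clock genes 8 were higher and 5 lower, beside 6 higher and 3 lower in untreated obese liver. The promoters of 3 genes are printed because they carry patterns of the motifs that the clock's arms read. These are the E-box CACGTG bound by CLOCK and BMAL1, the D-box TTANGTAA bound by DBP and its relatives, and the half-site pattern TNGGTCA. The last is a loose form of the half-site of the REV-ERB receptors, since N stands for any base, and a match need not be such a site. They run from 250 bases before to 50 bases after the transcription start, 300 bases each, from RefSeq on build GRCm38.p6. Capitals mark, on either strand, the half-site pattern in Bmal1, the E-box in Ciart and the D-box in Per3, and leave 1 match to the half-site pattern in Per3 in lower case.
Bmal1: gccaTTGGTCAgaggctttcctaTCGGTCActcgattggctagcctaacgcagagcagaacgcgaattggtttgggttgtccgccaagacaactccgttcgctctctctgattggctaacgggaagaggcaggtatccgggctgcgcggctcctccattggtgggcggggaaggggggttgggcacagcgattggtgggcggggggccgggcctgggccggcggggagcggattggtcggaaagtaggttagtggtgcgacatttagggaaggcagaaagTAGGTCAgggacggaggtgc
Ciart: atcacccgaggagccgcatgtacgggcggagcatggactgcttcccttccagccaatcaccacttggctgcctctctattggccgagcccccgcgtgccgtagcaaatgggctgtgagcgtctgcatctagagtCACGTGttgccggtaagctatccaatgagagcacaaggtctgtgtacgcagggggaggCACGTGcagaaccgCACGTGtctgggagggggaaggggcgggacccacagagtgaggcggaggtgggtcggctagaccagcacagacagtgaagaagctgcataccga
Per3: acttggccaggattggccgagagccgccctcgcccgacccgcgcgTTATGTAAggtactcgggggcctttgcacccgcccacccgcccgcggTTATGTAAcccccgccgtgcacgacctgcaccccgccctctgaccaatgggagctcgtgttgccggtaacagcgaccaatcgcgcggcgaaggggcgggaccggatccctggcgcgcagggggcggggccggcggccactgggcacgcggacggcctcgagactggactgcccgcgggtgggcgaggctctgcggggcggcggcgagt

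The Bmal1 promoter (chr7:113207261-113207560, plus strand) held 3 matches to the half-site pattern, starting at bases 5, 24 and 281 counted from its 5′ end. They differ from each other in the base that N leaves free. The Ciart promoter (chr3:95882179-95882478, minus strand) held 3 E-boxes, at bases 135, 193 and 207, and the Per3 promoter (chr4:151044616-151044915, minus strand) 2 D-boxes, at bases 46 and 93. Of 20 tested clock genes 17 matched the promoter table. Of these 17, 5 held an E-box, 1 a D-box and 5 a match to the half-site pattern in at least 1 listed promoter, where 7.15%, 2.32% and 11% of all 32851 promoters of the table did. A match describes these letters only.

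Bmal1, the activator at the centre of the loop, was at 3.51, 5.35, 4.81, 7.67 and 8.34 CPM in lean and 0.261, 0.204, 0.54, 0.512 and 0.658 CPM in treated liver. Every treated library was below 1 CPM and every lean library above 3. The log2 fold change was -3.74 (SE 0.40, adjusted p = 1.48e-06) against lean and -2.29 (SE 0.39, adjusted p = 0.000155) against untreated obese liver, whose mean was 2.13 CPM. Dbp, the output factor that reads D-boxes, went the other way, with 18.8, 8.58, 22.1, 11 and 8.58 CPM in lean and 113, 84.8, 121, 92.7 and 86.9 CPM in treated liver (log2 fold change 2.85, SE 0.28, adjusted p = 5.76e-07). Per3, a period gene whose promoter holds the D-boxes above, was at 2.95, 1.52, 3.05, 2.29 and 0.705 CPM and 14.8, 10.7, 7.59, 9 and 9.08 CPM (log2 fold change 2.26, SE 0.33, adjusted p = 3.55e-05). The ubiquitin protease Usp2, a known rhythmic output in mouse liver, rose by 2.75 (SE 0.29, adjusted p = 1.59e-06). Ciart, a repressor of CLOCK and BMAL1, rose by 1.60 (SE 0.47, adjusted p = 0.0148), a call lost without treated replicate 1 (adjusted p = 0.0504). For Dbp, Per3 and Usp2 the untreated obese means, 59.3, 6.53 and 12.2 CPM, lay between the other 2 groups. Per1 was at 16.9 ± 4.2 CPM in lean and 16.6 ± 3.63 CPM in treated liver (adjusted p = 0.946), and Nr1d1, which encodes REV-ERB alpha, at 31.5 ± 11.5 and 29.9 ± 8.55 CPM (adjusted p = 0.844).

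**Figure D5:**
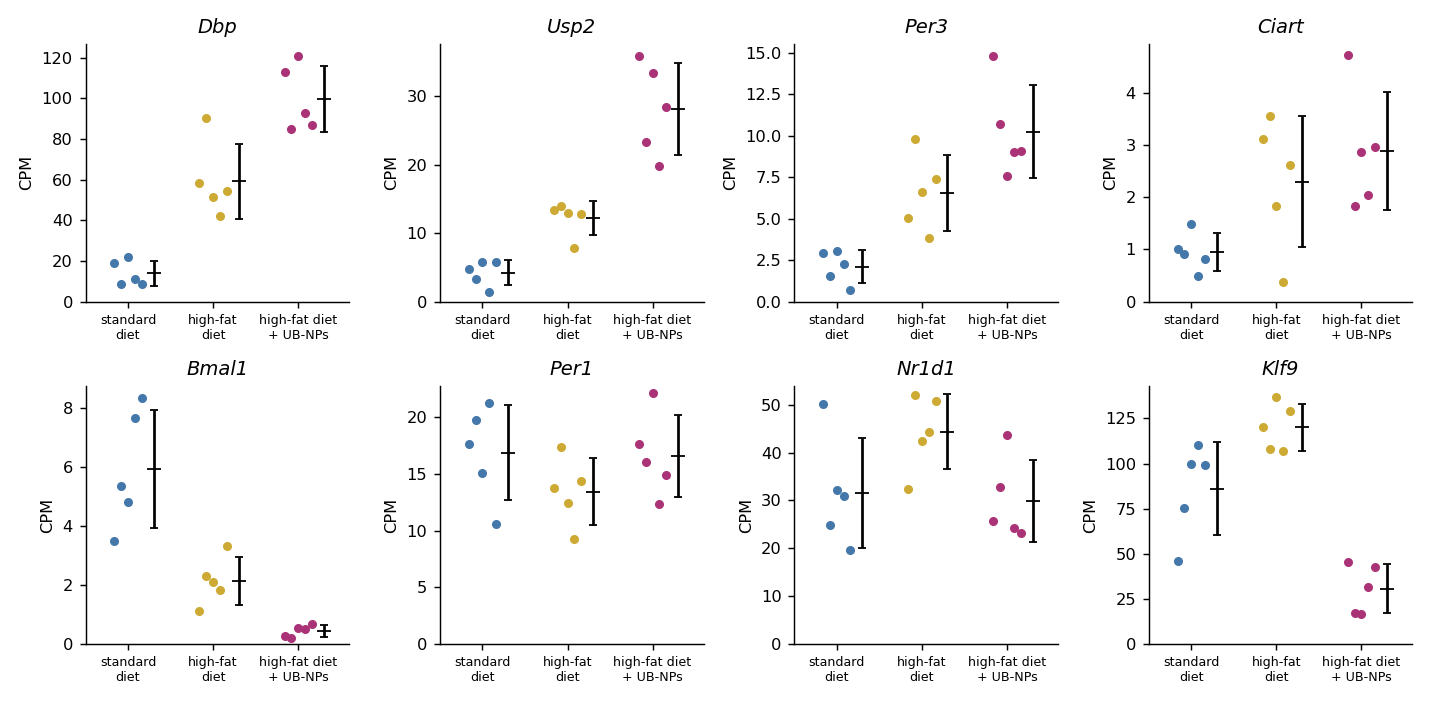
CPM of 7 clock genes and the glucocorticoid-responsive gene Klf9 in each library by group, with the mean and SD over 5 libraries to the right of the points. Dbp, Usp2, Per3 and Ciart are higher and Bmal1 and Klf9 lower in every treated library than in every lean one, while Per1 and Nr1d1 overlap.

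Genes that respond to glucocorticoids, hormones that also follow the time of day, were lower or not called. None of 16 was higher and 8 were lower, with a median of -0.74 on the count scale (0.68 on the TPM scale, -0.08 there relative to the median gene), beside 3 lower in untreated obese liver. Without lean replicate 5, 1 was higher and 8 lower. Klf9, a transcription factor induced by corticosterone, was at 45.8, 75.3, 99.7, 110.2 and 99.4 CPM in lean and 45.3, 17.2, 16.8, 31.5 and 42.4 CPM in treated liver (log2 fold change -1.49, SE 0.28, adjusted p = 0.000364), while untreated obese liver averaged 120.1 CPM. Arrdc2, an arrestin-like protein, fell by 1.94 (SE 0.23, adjusted p = 4.04e-06). Zbtb16 fell by 2.91 (SE 0.55, adjusted p = 0.000488), or by 1.97 without lean replicate 5. Tsc22d3, a mediator of the anti-inflammatory action, had a log2 fold change of -0.98 (SE 0.21, adjusted p = 0.0011), which was 0.45 on the TPM scale, below the median gene at 0.76. Of 23 immediate early genes 7 were higher and none lower, with 9 and none in untreated obese liver.

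Macrophage genes of fatty liver remained above lean liver. Of 13 tested markers of infiltrating and lipid-associated macrophages 9 were higher and none lower, with a median of 1.96, beside 10 higher, none lower and a median of 2.47 in untreated obese liver. Their summed level was 62.3 to 111 CPM in lean, 134 to 654 CPM in untreated obese and 166 to 422 CPM in treated libraries. Trem2, a lipid-sensing receptor that marks these cells, was at 0.554, 0.548, 1.22, 0.163 and 0.588 CPM in lean and 7.14, 9.2, 16.1, 13.9 and 8.17 CPM in treated liver. Each treated library exceeded each lean library several times over. The log2 fold change was 4.11 (SE 0.41, adjusted p = 7.15e-07), beside 4.03 (SE 0.41) in untreated obese liver, and the difference of treated from untreated obese liver was 0.076 (SE 0.32, adjusted p = 0.887). Mmp12, macrophage elastase, rose by 4.82 (SE 0.75, adjusted p = 0.00019), or by 6.15 without lean replicate 5, and Cd9, a tetraspanin of the same cells, by 1.76 (SE 0.28, adjusted p = 9.27e-05).

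Resident Kupffer cell markers had 6 of 14 higher and none lower, with a median of 0.56 and a summed level of 146 to 301 CPM in lean and 261 to 460 CPM in treated libraries. Untreated obese liver had 5 of 14 higher and none lower, with a median of 0.78 and a summed level of 194 to 572 CPM. C1qa, a complement chain made by macrophages, rose from 13.1, 9.86, 13.6, 4.49 and 24.1 CPM to 42.1, 62.8, 61.8, 74 and 44.7 CPM (log2 fold change 2.14, SE 0.32, adjusted p = 4.84e-05) and Csf1r, the growth factor receptor of macrophages, by 0.88 (SE 0.21, adjusted p = 0.0029), while Adgre1, which encodes F4/80, was at 4.05 ± 3.51 CPM in lean and 3.32 ± 1.56 CPM in treated liver (adjusted p = 0.758). Genes of antigen presentation were higher in part: 6 of 12 markers of MHC class II and dendritic cells were higher and none lower, with a median of 1.83 and a summed level of 72.7 to 131 CPM in lean and 306 to 633 CPM in treated libraries. Untreated obese liver had 7 of 12 higher and none lower, with a median of 1.54 and a summed level of 170 to 488 CPM. H2-Aa was at 15.1, 25.1, 14.6, 22.1 and 13.4 CPM in lean and 60.7, 68.9, 131, 118 and 84.2 CPM in treated liver (log2 fold change 2.35, SE 0.27, adjusted p = 3.48e-06), and its chaperone Cd74 rose by 2.50 (SE 0.29, adjusted p = 3.82e-06). Other cell types were covered by 11 further marker lists besides hepatocytes. T and NK cells had 2 of 13 higher, B and plasma cells 3 higher and 2 lower of 11, neutrophils none of 3, sinusoidal endothelium 5 higher and 2 lower of 16, stellate cells and fibroblasts 1 higher and 1 lower of 14 (2 and none without lean replicate 5), cholangiocytes 4 higher and 1 lower of 10 (3 and 2 without it), adipocytes as given above, erythroid cells 2 lower of 7, pancreas 1 lower of 2, skeletal muscle none of 1 and mesothelium none of 2.

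Interferon-responsive and inflammatory genes were called higher more often than lower. Over all genes tested 16.1% were higher and 12.3% lower, and the lower calls in these lists were below or near that share. Of 40 interferon genes 13 were higher and 2 lower, with a median of 0.33, beside 26 higher, none lower and a median of 1.06 in untreated obese liver; directly against untreated obese liver 2 were higher and 16 lower. Bst2, tetherin, was at 17.9, 29, 27.3, 11.3 and 28.1 CPM in lean and 205, 107, 268, 162 and 156 CPM in treated liver (log2 fold change 2.98, SE 0.27, adjusted p = 3.8e-07). Ifi27 rose by 2.33 (SE 0.21, adjusted p = 3.65e-07), and its relative Ifi27l2b went from 3.51, 4.26, 2.98, 4.33 and 2.47 CPM to 45.1, 27.5, 62, 49.6 and 55.4 CPM (log2 fold change 3.76, SE 0.27, adjusted p = 2.18e-08). Stat2, a transducer of the interferon signal, was at 68.9, 73.9, 63.1, 162 and 69.7 CPM against 29.9, 21.9, 11.5, 20.6 and 19.6 CPM (log2 fold change -2.08, SE 0.27, adjusted p = 1.04e-05), with untreated obese liver at 83.2 CPM. These 2 genes separated the groups completely, with Bst2 above and Stat2 below in each treated library.

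Of 34 cytokine and signalling genes 11 were higher and 5 lower, where untreated obese liver had 16 higher and 1 lower. The chemokines Ccl5 and Cxcl1 rose by 2.82 and 3.09 (SE 0.40 and 0.46, adjusted p = 2.8e-05 and 4.72e-05; 3.92 for Cxcl1 without lean replicate 3), and Il1b fell from 2.77, 2.8, 2.24, 6.61 and 5.88 CPM to 0.348, 1.64, 0.455, 0.854 and 0.532 CPM (log2 fold change -2.40, SE 0.48, adjusted p = 0.000689). Ccl2, which recruits monocytes, was at 0.354 ± 0.321 and 1.14 ± 0.721 CPM (adjusted p = 0.0634, and 0.0231 without lean replicate 5 or 0.0493 without replicate 1 of the untreated obese group). Acute phase proteins had 13 of 24 higher and 1 lower, with a median of 0.85 (12 and 2 without lean replicate 5), beside 5 higher and 4 lower in untreated obese liver. Saa3 was at 1.11, 2.37, 2.37, 1.55 and 0.94 CPM in lean and 15, 12.7, 10.8, 16.1 and 12.8 CPM in treated liver (log2 fold change 2.97, SE 0.31, adjusted p = 8.92e-07). Lcn2, an iron-binding lipocalin, rose by 4.44 (SE 0.71, adjusted p = 0.000364; 5.51 without lean replicate 1) and Saa1, the main circulating serum amyloid, by 2.99 (SE 0.68, adjusted p = 0.00489; 3.82 without lean replicate 1 and 2.27 without treated replicate 2). Complement and coagulation genes had 18 of 42 higher and 3 lower, with a median of 0.59, beside 3 higher and 5 lower in untreated obese liver.

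Matrix genes changed little as a list, with 6 of 30 higher and 1 lower, near the share among all genes. Mmp13, a collagenase, had no count in lean liver and 0.784, 0.341, 0.909, 1.54 and 0.971 CPM in treated liver, at least 19.8-fold higher (adjusted p = 0.00016), and averaged 1.97 CPM in untreated obese liver. Timp2, a metalloproteinase inhibitor like Timp1 above, rose by 1.34 (SE 0.34, adjusted p = 0.00523). Col1a1, the main fibrillar collagen, ranged from 15.6, 23.9, 1.7, 4.74 and 7.99 CPM in lean to 10.5, 13.9, 58.6, 69.3 and 36.5 CPM in treated liver, with wide overlap (adjusted p = 0.081, and 0.0372 without lean replicate 2). Endoplasmic reticulum stress genes and chaperones had 13 of 30 higher and 1 lower (15 and 2 without lean replicate 5; 4 and 1 in untreated obese liver), among them Derl1, a channel of protein disposal (1.63, SE 0.19, adjusted p = 3.52e-06) and the stress sensor Atf6 (2.00, SE 0.27, adjusted p = 1.31e-05).

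Sex-biased liver genes, which growth hormone pulses set in mice, differed between the 2 obese groups in the male-biased list. Of 27 male-biased genes 4 were higher and 7 lower in treated liver, with a median of -0.41 (1.02 on the TPM scale, 0.26 there relative to the median gene). In untreated obese liver none was higher and 22 were lower, with a median of -2.22, and directly 17 were higher in treated than in untreated obese liver and none lower. Mup20, a urinary pheromone protein, was at 988, 1424, 1516, 684 and 1409 CPM in lean and 19342, 4769, 5377, 7094 and 7407 CPM in treated liver (log2 fold change 2.87, SE 0.38, adjusted p = 1.22e-05). Elovl3, a fatty acid elongase, was at 152, 200.2, 143, 93 and 566 CPM against 27.1, 63.3, 28.4, 21 and 22.6 CPM (log2 fold change -2.83, SE 0.49, adjusted p = 0.000408), or -2.17 without lean replicate 5. Of the 20 tested Mup genes, whose near-identical copies make single values uncertain, 3 were higher and none lower in treated liver, and none higher and 12 lower in untreated obese liver. Of 13 tested female-biased genes 4 were higher and 1 lower (4 and 2 without lean replicate 5), Cyp2a4 above among the former, where untreated obese liver had 1 higher and 2 lower.

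Nuclear-retained and other listed long noncoding RNAs had none of 17 higher and 6 lower, with a median of -0.56 (0.81 on the TPM scale, 0.05 there relative to the median gene). Malat1, an abundant nuclear RNA, was at 172, 167, 373, 302 and 114 CPM in lean and 45.9, 42.5, 19.4, 32.6 and 34.6 CPM in treated liver (log2 fold change -2.69, SE 0.31, adjusted p = 3.15e-06). Kcnq1ot1, an imprinted antisense RNA, fell by 2.31 (SE 0.34, adjusted p = 3.65e-05). Both fell in every treated library below every lean one, as Meg3 did. The untreated obese means of Malat1 and Kcnq1ot1, 169 and 10.1 CPM, were within 1 SD of the lean means of 225 ± 108 and 11.6 ± 2.26 CPM. Meg3 was called lower in untreated obese liver too, as given above.

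The same difference, UB-NPs on a high-fat diet against a standard diet, was measured in the prevention study of the series with other libraries: 5 of mice given 60 mg/kg/day UB-NPs with the high-fat diet for 10 weeks, and 5 of mice on standard diet with water for 10 weeks. In 1 fit of all 30 libraries, that difference called 1013 of 14784 genes (627 higher and 386 lower), and the treatment-study difference called 4113 (27.8%). Of the genes called, 586 were shared in direction, which is 57.8% of the prevention calls and 14.2% of the treatment calls, and 21 were called in opposite directions. The test of the difference between the 2 effects called 903 genes (6.11%), 333 with a larger value in the treatment study (2.25%) and 570 with a smaller one (3.86%). It called 546 without lean replicate 4, 587 without treated replicate 3 and 588 without replicate 2 of the UB-NP prevention group, and on the TPM scale 83.9% of calls had the larger value in the treatment study against 36.9% here. Here too the mitochondrial share moved: it was 61.5% to 73.4% in the standard-diet and 41.8% to 52.0% in the UB-NP libraries of the prevention study, and its part was not tested beyond the covariate fit, which called 157 genes.

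The 4 named genes whose effect was higher in the treatment study were Apoa4, Fam221b, Gsta1 and Gstm3. Apoa4 differed by 3.36 on the log2 scale (SE 0.86, adjusted p = 0.02), with an effect of 1.80 (SE 0.61) in the prevention study. Fam221b was at 2.03, 2.07, 3.12, 1.71 and 0 CPM in lean and 38.6, 3.58, 33.6, 16.6 and 9.77 CPM in treated liver, and its effects differed by 3.45 (SE 0.84, adjusted p = 0.0148). The glutathione transferases Gsta1 and Gstm3 differed by 3.45 and 3.26 (SE 0.95 and 0.86, adjusted p = 0.0298 and 0.0237). Gsta1 was at 2.21, 1.83, 2.98, 0.572 and 5.99 CPM and 89, 18.9, 81.4, 26.2 and 42.7 CPM, and Gstm3 at 8.12, 5.6, 6.78, 2.94 and 6.11 CPM and 135, 43.5, 189, 49.7 and 63.6 CPM, in lean and treated liver. On the lower side stood Morf4l1-ps1 (-9.38, SE 1.66, adjusted p = 0.00304), Sardhos (-8.94, SE 1.90, adjusted p = 0.00847), Ulk4 (-5.51, SE 1.28, adjusted p = 0.012) and Dnase1l2, a nuclease (-4.26, SE 0.98, adjusted p = 0.00832). For the first 2 the treated group is at 0, so the size is not a bound and only the call is given weight. Of 4 genes chosen after their values were seen, Cidec (1.35, adjusted p = 0.272), Trem2 (1.26, 0.411), Bmal1 (0.67, 0.728) and Clpx (-0.04, 0.976) did not pass the test of a difference between the studies, which does not show that the effects were alike, with prevention effects of 2.79, -4.48 and -2.64 for the last 3.

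The authors' deposited table calls 2898 genes between these same 2 groups, 1392 higher and 1506 lower. Of those in the authors' deposited table, 2367 (81.7%) were also called here in the same direction, none in the opposite one, and 344 were not tested here. Of the calls made here, 58.8% were also called by the authors. Both sets of calls rest on the same libraries, so the overlap is no independent support.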

How the data were processed

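Liver RNA was sequenced from poly(A)-selected, stranded libraries, per the labels' protocols. The submitters' processing notes name fastp, HISAT2, StringTie, DESeq2 and build GRCm39, with no versions. The authors deposited expected counts per gene for all 30 libraries, of which 4.02% to 7.03% were fractional and were rounded here. The authors also deposited TPM (transcripts scaled by gene length and to a fixed total) and a table of yes or no calls per comparison. How reads shared between genes or strands were counted is not given in the sources used here.

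The fit took the 15 libraries of the treatment study (totals of 17.0 to 24.3 M counts) with group as the only term: edgeR 4.0.16 (R 4.3.3), its default filter on low counts, TMM scaling, the quasi-likelihood test and Benjamini-Hochberg adjustment over 14163 genes, with calls at an adjusted p under 0.05. A fit of all 30 libraries gave the comparison with the prevention study. Standard errors are approximate, from the fold change and its F statistic. A gene at 0 in every library of a group was set to a floor of 3 counts over that group, which covers counting error only. Mitochondrial genes were 37, and 31 nuclear copies were found with BLAST+ 2.17.0 by at least 80% identity over at least 50% of their length. The code was tested on simulated counts. No pair of libraries in a group was identical.

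Genes named were the 10 largest called rises and falls with separate groups, a mean of at least 1 CPM and a characterised gene's symbol, the 3 of smallest adjusted p each way, up to 4 called members per list, the 4 largest differences each way between the studies, and 43 genes of interest, of which Tnf, Pnpla3 and Cyp2b10 were not tested. Other genes are said to be chosen after their values were seen. The members, the 41 pathway and 15 marker lists (1346 genes) and the genes of interest were chosen with earlier results of these data known. Some genes that this rule names are not reported here. Alternatives were other scalings (DESeq2 1.42.0 size factors, TPM with limma 3.58.1 on log2(TPM + 1)), no filter, DESeq2's test, mitochondrial genes removed, thinning to 3.14 M counts, the mitochondrial share as covariate, a replicate block, other sets of libraries and leaving out each library.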

Additional observations from a re-analysis of the deposited data

Results flagged for a closer look

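In groups of 5, 31 of 312 checks found a library whose gap to its nearest neighbour was over 0.71 of the group's range. The checks took each named gene, and total counts, mitochondrial share and other counts, in the lean and the treated group. For normally distributed values about 1 in 20, or 15.6, would do so. CPM need not be so distributed and the genes are not independent, so 15.6 is only a rough guide. Lean replicate 1 held the highest value for Lcn2 (6.92 CPM) and Saa1 (39.8 CPM). Lean replicate 2 held the highest value for Plin2 (213 CPM), Bdh1 (82.8 CPM), Mttp (75.8 CPM) and Cdc20 (0.426 CPM). Lean replicate 3 held the highest value for Slc51a (6.78 CPM). Lean replicate 4 held the highest value for Stat2 (162 CPM), Chka (101 CPM) and Slc30a10 (49.5 CPM), and the lowest value for Cox8a (24.2 CPM) and Hspe1 (18.7 CPM). Lean replicate 5 held the highest value for Morf4l1-ps1 (13.3 CPM), Idi1 (53.6 CPM), Ppargc1a (10.1 CPM), Zbtb16 (13.5 CPM), Mmp12 (1.29 CPM) and Elovl3 (566 CPM). Treated replicate 1 held the highest value for Ugt1a8 (65.7 CPM) and Mup20 (19342 CPM). Treated replicate 2 held the highest value for Or5al5 (0.477 CPM), Saa1 (299 CPM) and Elovl3 (63.3 CPM), and the lowest value for Hspe1 (56.2 CPM). Treated replicate 3 held the highest value for Psmb2 (47 CPM), Ephx1 (727 CPM), Srxn1 (93.2 CPM) and Slc39a4 (51.3 CPM), and the lowest value for mt-Nd3 (335 CPM). Treated replicate 4 held the highest value for Cxcl1 (4.73 CPM). Treated replicate 5 held the highest value for Igf1 (608 CPM).

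The effect in the treatment study differed from that in the prevention study, by the interaction term of edgeR's quasi-likelihood test at an adjusted p under 0.05, for 60 of the genes named, 8 of them chosen by this test. Many others were named for a large or clear effect in the treatment study, which is 1 side of this contrast. Their choice favours a call, so the 60 are no separate result. Over all genes tested the share was 6.11%. Differences are log2 values of the treatment study's effect minus the prevention study's. Larger values were found for Fam83a (8.00), Slc35f2 (7.95), Cdc20 (5.09), Gsta1 (3.45), Fam221b (3.45), Apoa4 (3.36), Gstm3 (3.26), Ccl5 (2.44), Mup20 (2.20), Bst2 (2.15), Slc39a4 (1.98), H2-Aa (1.85), Ephx1 (1.78), Cd74 (1.67), Rbp4 (1.65), Gstm4 (1.58), Cyp2e1 (1.57), Ifi27 (1.49), Slc10a1 (1.47), Ndufa4 (1.44), C1qa (1.43), Atf6 (1.35), Mttp (1.32), Lamp1 (1.32), Cyp2c38 (1.31), Cd9 (1.31), Gstm2 (1.29), Plin2 (1.29), Cox7a2 (1.28), Ugt1a6b (1.21), Ctsb (1.20), Fads2 (1.20), Pemt (1.18), Srxn1 (1.08), Derl1 (1.07), Cox8a (1.06) and Psmb2 (0.86). Smaller values were found for Morf4l1-ps1 (-9.38), Sardhos (-8.94), Ulk4 (-5.51), Dnase1l2 (-4.26), Or5al5 (-3.30), Meg3 (-3.28), Mylk4 (-3.12), Vmn2r53 (-3.06), Vmn2r115 (-2.82), Socs2 (-2.04), Kcnq1ot1 (-1.97), mt-Co3 (-1.92), mt-Atp6 (-1.89), mt-Co2 (-1.89), Stat2 (-1.84), mt-Nd3 (-1.80), Malat1 (-1.77), Arrdc2 (-1.66), Sult1d1 (-1.23), Hmgcs1 (-1.19), Igf1 (-0.96), Pck1 (-0.95) and Gls2 (-0.84). For Fam83a, Slc35f2, Morf4l1-ps1 and Sardhos a group stands at 0 and for Cdc20 nearly so, so that the size depends on the prior count. The mitochondrial share was lower with UB-NPs than on standard diet in both studies, and its part beyond the covariate fit was not tested.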

How the results depend on the processing

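The count of genes called between treated and lean liver (4027) was 4036 with DESeq2 size factors, 4076 with no low-count filter, 4024 with mitochondrial genes removed, 3491 after thinning, 3664 with only those 10 libraries, 4113 with all 30, 4645 with DESeq2's test, and 3216 (without treated replicate 3) to 4222 (without lean replicate 5) with 1 library left out. It moved to 2451 with an absolute log2 fold change of at least 1, to 10661 on the TPM scale and to 0 with the mitochondrial share as covariate. For untreated obese against lean liver (1863) the TPM scale gave 708, and leaving out 1 library gave 1108 (replicate 5 of the untreated obese group; 1178 without its replicate 4) to 2341 (lean replicate 4). For treated against untreated obese liver (3836) the covariate gave 2, TPM gave 8000 and leaving out 1 library 3023 to 4537. For the difference between the studies (903) the covariate gave 157 and leaving out 1 library 546 (lean replicate 4) to 1210 (lean replicate 5), with 587 without treated replicate 3 and 588 without replicate 2 of the UB-NP prevention group. The mitochondrial share difference was -52.7 to -46.5 percentage points with 1 library left out and -36.1 with nuclear copies not counted. Same-numbered lean and treated libraries did not deviate together (correlations of -0.0851 to 0.0306), so replicate numbers do not pair the samples, and the replicate block gave 3595.

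Of 153 named genes 141 were called, 138 of them in every fit with 1 library left out. Many were named because they were called in these same libraries, so these counts are no separate result. Over all genes tested 28.4% were called. Directions reversed as follows, and the cause was not tested. With the covariate the log2 fold changes were Fam221b -0.38, Fasn -1.05, Ppargc1a 0.85, Slc51a -0.21, Cyp7a1 -2.04, Cyp8b1 -2.05, Ndufa7 -0.082, Psmb5 -0.29, Gulo -0.18, Lect2 -1.01, Igfbp1 0.58, Por -0.19, Cyp2a5 -0.17, Adgre1 2.44, Il1b 0.31, Cyp1a1 -5.82 and Slc39a4 -0.30. On the TPM scale they were Ppara 1.99, Ppargc1a 0.098, Insig2 1.12, Apoa1 1.53, Tat 0.17, Arg1 0.31, Igfbp1 0.94, Per1 1.02, Nr1d1 1.24, Tsc22d3 0.45, Adgre1 0.51, Tjp3 0.12, Igf1 1.10, Hnf4a 0.60 and Socs2 0.062. The median gene was itself 0.76 higher on that scale, a low mark for abundant genes as given above. Ppargc1a, Tat, Arg1, Tsc22d3, Adgre1, Tjp3, Hnf4a and Socs2 stayed below that median gene, and the rest lay above it. With no filter Apoa1, Per1 and Nr1d1, none of them called, came to 0.068, 0.059 and 0.0067, and with the replicate block Apoa1 came to 0.035. With 1 library left out, uncalled genes ranged over 0: Apoa1 from -0.19 to 0.26, Igfbp1 from -0.40 to 0.35, Per1 from -0.14 to 0.073, Nr1d1 from -0.24 to 0.16 and Adgre1 from -0.55 to 0.28. Some list medians fell below 0 with the covariate, among them bile acid (-0.55), pericentral (-0.49), complement and coagulation (-0.41), cytochrome P450 (-0.40) and phase II genes (-0.31). Others stayed above 0, such as NRF2 and antioxidant (0.34) and lipid droplet genes (0.22). The few other counts of lean libraries, 3.44 M at least, limit low genes.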

Other observations

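Lists of growth and stress genes that the comparisons above do not cover were called in differing shares, beside 28.4% of all genes. Of 33 tested cell cycle genes 14 were higher and 2 lower in treated than in lean liver, with a median log2 fold change of 1.19 (17 and 2 without lean replicate 5), and untreated obese liver had 7 higher and none lower. Cdc20, an activator of the anaphase-promoting complex, was at 0, 0.426, 0, 0 and 0 CPM in lean and 4.12, 1.87, 3.64, 1.39 and 1.03 CPM in treated liver (adjusted p = 0.000369), and of the lean libraries only replicate 2 held a count, so no fold is given. Ccnd1, cyclin D1, rose by 1.62 (SE 0.34, adjusted p = 0.00127). Of 20 genes of p53 and DNA damage 6 were higher and 1 lower (9 and 1 without lean replicate 5), and untreated obese liver had 7 higher and none lower. Gdf15, a hormone released by stressed cells, was at 0, 1.22, 1.08, 1.22 and 0.235 CPM in lean, 10.4 CPM on average in untreated obese and 8.68, 14.3, 15.2, 12.7 and 10.7 CPM in treated liver (log2 fold change 3.93, SE 0.44, adjusted p = 3.11e-06). Bax, a promoter of apoptosis, rose by 1.04 (SE 0.20, adjusted p = 0.000451). Among immediate early genes, Myc rose by 3.01 and Jun by 1.28 (SE 0.50 and 0.22, adjusted p = 0.000187 and 0.000198). Heat shock genes had 3 of 20 higher, among them Hspb1, a small chaperone (2.43, SE 0.32, adjusted p = 1.24e-05), and replication-dependent histones 2 of 8.

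Membrane lipid, lysosome, metal and hormone genes were mixed. Pemt, which makes phosphatidylcholine from phosphatidylethanolamine, was at 39.6, 45.8, 41.9, 27.6 and 35.3 CPM in lean and 163, 155, 216, 125 and 157 CPM in treated liver (log2 fold change 2.10, SE 0.21, adjusted p = 5.95e-07), while Chka, the choline kinase of the other route, fell by 1.80 (SE 0.25, adjusted p = 1.95e-05), in a list with 6 higher and 6 lower of 28. Lysosomal Ctsb and Lamp1 rose by 1.82 and 1.70 (SE 0.23 and 0.23, adjusted p = 8.11e-06 and 1.95e-05), in a list of 30 with 9 higher and 4 lower. Of 21 genes of iron, zinc and manganese handling 11 were higher and 2 lower (12 and 4 without lean replicate 5): the zinc importer Slc39a4 rose by 2.15 and the manganese exporter Slc30a10 fell by 2.91 (SE 0.35 and 0.47, adjusted p = 0.000148 and 0.000182; -2.18 for Slc30a10 without lean replicate 4). Junction genes had 5 higher and 3 lower of 18, with Cldn2 higher by 1.90 and Tjp3 lower by 1.41 on the log2 scale (adjusted p = 8.16e-06 and 4.86e-05; 0.12 for Tjp3 on the TPM scale). In the growth hormone and IGF list, 2 of 15 were higher and 2 lower, with Igf1 and Socs2 lower by 0.91 and 1.30 (adjusted p = 0.00335 and 0.00181), which turned to 1.10 and 0.06 on the TPM scale. Of 28 genes of hepatocyte identity 8 were higher and 2 lower, with Rbp4, the retinol carrier, higher by 2.15 and Hnf4a, a master regulator of hepatocytes, lower by 0.85 (adjusted p = 3.82e-06 and 0.00386; 0.60 for Hnf4a on the TPM scale). The median gene was at 0.76 on the TPM scale, so Tjp3, Socs2 and Hnf4a stayed below it there and Igf1 lay above it. That value is a low mark for abundant genes, as given above.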
